A study of Saccharomyces cerevisiae with 4 samples.

Results

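The genes described here are 10 genes of *Saccharomyces cerevisiae* that encode glucanases and related proteins of the cell wall and proteins of the SUN family, picked by ORF name from the 6172 genes of the deposited table. They are *BGL2* (YGR282C), *SCW4* (YGR279C), *SCW10* (YMR305C), *EXG1* (YLR300W), *EXG2* (YDR261C), *ACF2* (YLR144C), *SIM1* (YIL123W), *UTH1* (YKR042W), *NCA3* (YJL116C) and *SUN4* (YNL066W). Each of 4 two-colour arrays compared a *mid2* mutant in the BY4741 background after 3 h with zymolyase at 0.8 units per ml with the untreated part of the same culture, both grown in rich YEPD medium at 24 °C. Zymolyase is a glucan-digesting enzyme preparation, and Mid2 senses wall damage at the plasma membrane for the cell wall integrity pathway. Per the labels 2 cultures were used and dyes were swapped for each, but which arrays share a culture is not said. Treated RNA was in Cy5 on arrays 2 and 4 and in Cy3 on arrays 1 and 3. Both channels carry the *mid2* mutation and the nutrient marker deletions of BY4741, and cells with intact *MID2* were not analysed here. *MID2* had no value on any array, so its absence was not checked. For the untreated RNA of array 4, one label names *hog1* in place of *mid2*, although the genotype label says *mid2*. *HOG1* read 0.20, 0.55, −0.15 and 0.26 on arrays 1 to 4, so its value on array 4 lay within the range of the other arrays.

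The yeast wall is a network of β-glucan and chitin that holds mannoproteins. Glucanases of the wall are not only degrading enzymes: some cut a glucan chain and join the piece to another, and together with synthases they let the wall grow and the bud separate. SUN proteins are secreted proteins named from the initials of 3 of the members, *SIM1*, *UTH1* and *NCA3*, and the *SUN4* product acts in cell septation. Values are given as the log2 ratio of treated to untreated cells. That direction is likely rather than stated: it was set by the 10 known zymolyase-induced genes whose medians were 1.65, 1.93, 2.35 and 1.93 on arrays 1 to 4. The means of these 10 genes ran from 0.34 to 3.04, and 9 of them passed as risen (limma, adjusted p under 0.05). As these genes set the sign, a positive median was fixed in advance and does not test the direction. The array medians over the genes tested were −0.022, −0.37, −0.045 and −0.069 for arrays 1 to 4, which puts array 2 lowest.

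Of the 10 genes, 7 had a value on all 4 arrays and could be tested, as did 53.5% of the 6172 genes. *EXG1* and *BGL2* rose after zymolyase, and *EXG2*, *SIM1*, *SCW4*, *UTH1* and *SUN4* did not pass. The background was 4.15% of 3299 genes called in either direction, 2.76% risen and 1.39% fallen (limma, adjusted p under 0.05). The means of the 7 genes ran from −0.59 for *SUN4* to 1.19 for *EXG1*, with a median of 0.27, against −0.14 for all genes tested. Without array 2 that median was 0.036, against −0.046 for all genes tested, and without array 3 it was 0.50, against −0.19. Here and below, means without an array are averaged over both possible pairings of arrays into cultures. They are not plain means of the remaining arrays. *EXG1*, *BGL2* and *EXG2* were above 0 on all 4 arrays, as were 6.15% of all genes tested, and none of the 7 was below 0 on all 4, as were 17.0%. At an unadjusted p under 0.05 in limma, 4 of the 7 genes stood out (*EXG1*, *BGL2*, *EXG2* and *SUN4*), against 10.8% of all genes tested. *SCW10* and *ACF2* were blank on array 2 alone, as were 81.5% of the 1130 genes with exactly 3 values. *NCA3* was blank on every array, like 14.2% of the 6172 genes, so nothing is known here of its response.

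**Figure D1:**
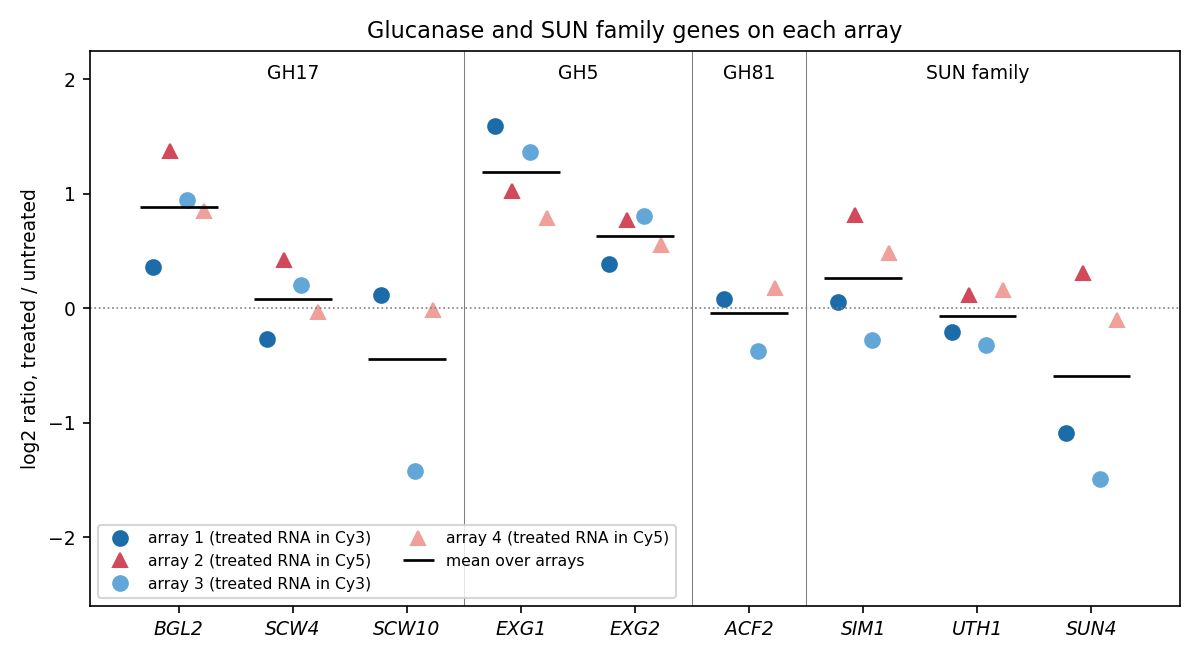
Log2 ratio of treated over untreated cells (vertical axis) for the 9 genes with values, on arrays 1 to 4. Points are single arrays, triangles mark treated RNA in Cy5, circles mark it in Cy3, and the bar is the mean. GH marks glycoside hydrolase families. *EXG1*, *BGL2* and *EXG2* lie above 0 on all 4 arrays, and the triangles of *SIM1*, *UTH1* and *SUN4* lie above their circles.

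Among the 7 genes tested *EXG1* had the largest mean change. It encodes the major secreted exo-β-glucanase, which releases glucose from the ends of glucan chains. *EXG1* read 1.59, 1.02, 1.37 and 0.79 on arrays 1 to 4. All 4 arrays were thus above 0, with the lowest value on array 4, the array with the narrowest spread. On each array *EXG1* exceeded nearly all genes with a value there, 98.9%, 95.5%, 98.6% and 98.3% of them. Its mean was 1.19 ± 0.35 (SD over 4 arrays of 2 cultures), or 2.28-fold, with a 95% interval of 0.65 to 1.73 (limma, adjusted p = 0.000721). By its mean it ranked 60 of 3299 from the highest. The call was lost without array 1 (1.02, adjusted p = 0.203), without array 4 (1.36, adjusted p = 0.0764) and, narrowly, without array 3 (1.08, adjusted p = 0.0501), all in limma, and held without array 2 (1.31, adjusted p = 0.0123).

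*EXG2* encodes an exoglucanase that is held at the cell surface by a glycolipid anchor. It read 0.38, 0.77, 0.81 and 0.55 on arrays 1 to 4. These values were also all above 0, and their spread was among the narrow ones: 12.7% of the genes tested had a smaller SD. The mean of 0.63 ± 0.20 (SD, 4 arrays), or 1.55-fold, did not pass over all genes (95% interval 0.088 to 1.17, limma, adjusted p = 0.289, unadjusted p = 0.0228). It passed where arrays 1 with 4 were taken as the only pairing into cultures (limma, adjusted p = 0.0297). In that setting 306 of 3299 genes passed, against 137 where both pairings were required.

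Among the glucanases of the wall, *BGL2* encodes one of the most abundant wall proteins, an enzyme that cuts glucan chains internally and can rejoin them. It read 0.36, 1.38, 0.94 and 0.85 on arrays 1 to 4. The lowest value came from array 1 and the highest from array 2, and none was below 0. On arrays 2 to 4 *BGL2* exceeded 97.0%, 97.6% and 98.5% of the genes with a value, and on array 1 it exceeded 76.1%. The mean was 0.88 ± 0.42 (SD, 4 arrays of 2 cultures), or 1.85-fold, with a 95% interval of 0.34 to 1.43 (limma, adjusted p = 0.0355). This lay close to the smallest rise that passed, 0.85, and 5 genes with a smaller rise passed. The call was lost without any single array, with means of 1.07, 0.70, 0.93 and 0.83 without arrays 1 to 4 and adjusted p-values in limma between 0.121 and 0.278.

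*SCW4* encodes a soluble wall protein that resembles Bgl2 in sequence. It read −0.27, 0.42, 0.21 and −0.029 on arrays 1 to 4, and so lay on both sides of 0. The mean of 0.084 ± 0.30 (SD, 4 arrays) did not pass (95% interval −0.46 to 0.63, limma, adjusted p = 0.952), and it was −0.030 without array 2. *SCW10* encodes a close relative of Scw4, so that spots of either gene may also bind cDNA of the other. It read 0.12, −1.42 and −0.012 on arrays 1, 3 and 4. Array 3 was the low one, below all but 2.22% of the genes with a value there, while arrays 1 and 4 lay near 0. With genes of at least 3 values included, where 1.06% of 4429 genes passed, *SCW10* had a mean of −0.49, averaged over both pairings (plain mean −0.44 ± 0.85, SD, 3 arrays), with a 95% interval of −1.58 to 0.25 (limma, adjusted p = 0.875).

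*ACF2*, also called *ENG2*, encodes an endoglucanase that, unlike the other enzymes, is found inside the cell. It read 0.079, −0.38 and 0.18 on arrays 1, 3 and 4, on both sides of 0. In the fit with at least 3 values its mean over both pairings was −0.067 (plain mean −0.040 ± 0.30, SD, 3 arrays), with a 95% interval of −0.62 to 0.54 (limma, adjusted p = 0.996).

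**Figure D2:**
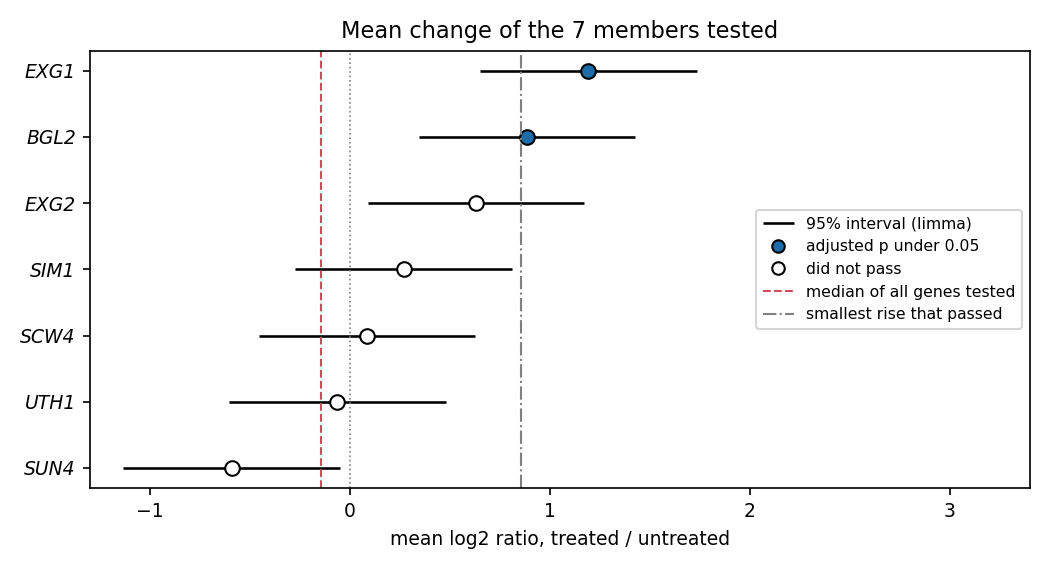
Mean log2 ratio of treated over untreated cells (horizontal axis) of the 7 genes with 4 values, with 95% intervals from limma. All 7 intervals rest on the same standard error, 0.28, and not on the spread of the single gene. Filled points, *EXG1* at 1.19 and *BGL2* at 0.88, passed the threshold, and the dashed and dash-dotted lines mark the median of all genes tested (−0.14) and the smallest rise that passed (0.85).

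None of the measured SUN genes passed. *SIM1* had the highest mean of them, with 0.052, 0.82, −0.28 and 0.48 on arrays 1 to 4. Arrays 2 and 4 were the high ones, and the mean of 0.27 ± 0.48 (SD, 4 arrays) had a 95% interval of −0.27 to 0.81 (limma, adjusted p = 0.847). Averaged over both pairings, the mean was 0.036 without array 2, 0.12 without array 4, 0.42 without array 1 and 0.50 without array 3. *UTH1*, known for effects of its loss on ageing and mitochondria, read −0.21, 0.12, −0.33 and 0.16 on arrays 1 to 4. Its values stayed close to 0, at −0.065 ± 0.24 (SD, 4 arrays), with a 95% interval of −0.61 to 0.48 (limma, adjusted p = 0.962), and its mean was 0.062 once arrays were centred on their medians.

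*SUN4* was the lowest of the 7 genes tested, with −1.09, 0.31, −1.49 and −0.10 on arrays 1 to 4. Arrays 1 and 3 were far below 0, where only 1.81% and 1.93% of the genes with a value read lower, while arrays 2 and 4 were near or above it. The mean of −0.59 ± 0.84 (SD, 4 arrays) did not pass (95% interval −1.13 to −0.050, limma, adjusted p = 0.348, unadjusted p = 0.0323). Of the genes tested, 94.1% had a smaller SD. The interval does not reflect this spread: the standard error was 0.28 for all 7 genes. *SUN4* passed where arrays 1 with 4 were the only pairing (limma, adjusted p = 0.0333), a setting in which 306 of 3299 genes passed. Averaged over both pairings, its mean was −0.29, −0.99, −0.19 and −0.89 without arrays 1 to 4. None of these passed (limma, adjusted p between 0.0620 and 0.916).

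The dye orientation moved with the values of the SUN genes. In *SUN4*, *SIM1* and *UTH1* both arrays with treated RNA in Cy5 read higher than both with it in Cy3. Of the 4 glucanase genes tested none did, and 15.6% of all genes tested did. *SUN4* averaged 0.11 with treated RNA in Cy5 and −1.29 with it in Cy3. The averages of *SIM1* were 0.65 in Cy5 and −0.11 in Cy3, and those of *UTH1* were 0.14 in Cy5 and −0.27 in Cy3. The half-difference of *SUN4* (Cy5 minus Cy3) was 0.70, and 99.2% of genes had a lower one. *EXG1* had the opposite order, with an average of 0.91 in Cy5 and 1.48 in Cy3, as did 29.4% of all genes. With centred arrays, the same counts of 3 and 1 of the 7 genes were found, against 25.7% and 22.2% of all genes. In the means over all 4 arrays an equal and opposite dye effect cancels, but not in those of *SCW10* and *ACF2* or in means without 1 array. Whether dye contributed to these patterns was not tested.

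**Figure D3:**
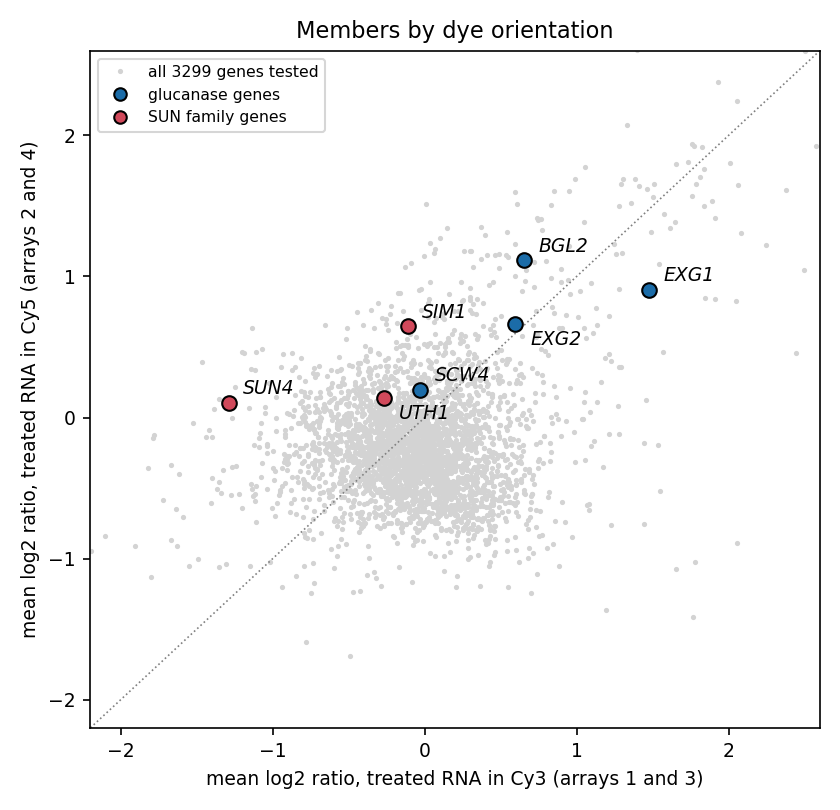
Mean log2 ratio with treated RNA in Cy5 (vertical axis, arrays 2 and 4) against that with treated RNA in Cy3 (horizontal axis, arrays 1 and 3). Grey points are the 3299 genes tested, 18 of which lie outside the plotted range, and the dotted line marks equal values. *SUN4* lies far left of the line at −1.29 in Cy3, whereas *EXG1* lies right of it.

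Within an array, related genes can be compared with the array's own offset removed. *BGL2* exceeded *SCW4* by 0.63, 0.95, 0.74 and 0.88 on arrays 1 to 4. This difference of 0.80 ± 0.15 (SD, 4 arrays), or 1.74-fold, varied less than either gene did alone. The genes are neighbours on chromosome VII, with 2 annotated genes between them. *EXG1* exceeded *EXG2* by 1.20, 0.25, 0.56 and 0.24 on arrays 1 to 4, so that the gap was widest on array 1. *SIM1* exceeded *SUN4* by 1.14, 0.51, 1.21 and 0.58 on arrays 1 to 4, and more on both Cy3 arrays than on either Cy5 array. *SIM1* also exceeded *UTH1* on every array, by 0.33 ± 0.27 (SD, 4 arrays), while *UTH1* exceeded *SUN4* on 3 of 4. Of these 5 pairs, 4 kept 1 sign on all 4 arrays, as did 21.7% of all pairs of genes tested. The SUN pairs share genes, so their signs are not independent. Pairs with *SCW10*, which was blank on array 2, were left out. The differences of the 5 pairs were not tested. An exact two-sided permutation of signs could not go below p = 0.125 over 4 arrays or p = 0.5 over 2 cultures.

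**Figure D4:**
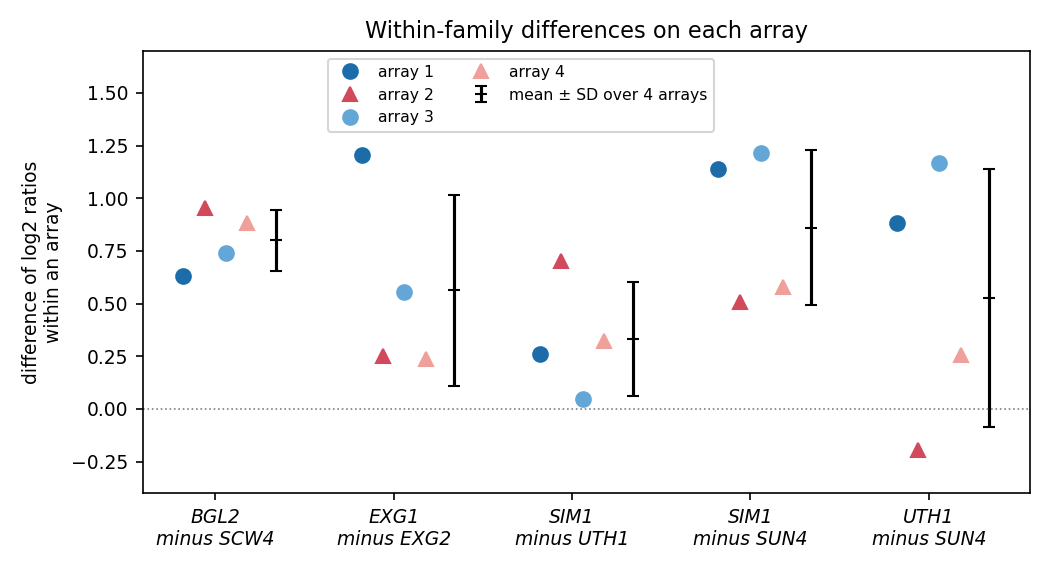
Difference between the log2 ratios of related genes within an array (vertical axis) for 5 pairs. Triangles mark treated RNA in Cy5 and circles mark it in Cy3, with the mean ± SD over 4 arrays beside them. The difference of *BGL2* minus *SCW4* is 0.63 to 0.95 on every array, the narrowest spread of the 5 pairs.

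Other wall-related genes are given by list, beside 4.15% of all genes called. Among 8 measured genes listed under daughter cell separation and other wall hydrolases, 1 rose, none fell and 7 did not pass, and the median was −0.076. The one that rose was *PIR1*, which is in that list although it encodes a wall protein linked to glucan rather than a hydrolase. It had a mean of 0.93 ± 0.36 (SD, 4 arrays; limma, adjusted p = 0.0229). The lowest mean in that list was that of *DSE2*, which encodes a daughter-cell glucanase-like protein, at −0.69, 0.028, −0.64 and 0.10 on arrays 1 to 4 (limma, adjusted p = 0.832). *DSE2* was lower on both Cy3 arrays than on either Cy5 array, as were 15.6% of all genes tested. Not every gene of that list had this order.

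Among 6 measured wall transglycosylase genes, 1 rose and 1 fell, with a median of −0.070. *CRH1*, whose product links chitin to glucan, is also one of the genes that set the direction, and it rose by 1.47 ± 0.42 (SD, 4 arrays; limma, adjusted p = 4.15e-05). *CRR1*, a relative of *CRH1* known from spore wall assembly, passed downward at −1.60 ± 2.00 (SD, 4 arrays; limma, adjusted p = 0.0267). Its values were −0.39, −1.61, −4.41 and 0.029 on arrays 1 to 4, so the mean rested largely on array 3.

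Among 10 measured genes of β-glucan synthesis, 1 rose and none fell, with a median of 0.32. A gene of that list that did not pass, *GSC2*, is also among the genes that set the direction. *GSC2* averaged −0.75 with treated RNA in Cy5 and 1.44 with it in Cy3, so its sign differed by dye orientation. *KRE6* read 0.84, 1.50, 0.48 and 0.70 on arrays 1 to 4, with a mean of 0.88 ± 0.44 (SD, 4 arrays; limma, adjusted p = 0.0364), close to that of *BGL2*. *KRE5*, which like *KRE6* is needed for β-glucan branches, had the lowest mean of the list at −0.26 ± 0.064 (SD, 4 arrays; limma, adjusted p = 0.849). The count of 2 risen among 7 glucanase and SUN genes was not tested against these lists.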

How the data were processed

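RNA of zymolyase-treated and untreated *mid2* cells was hybridised to 4 two-colour arrays in both dye orientations. The deposited table holds a value for each open reading frame (ORF) on each array. It was read as a log2 ratio because of its range, and the labels state neither its base nor its numerator nor how the authors normalized it. Across genes, arrays of opposite dye orientation had Pearson correlations of 0.13 to 0.39 and Spearman correlations of −0.077 to 0.14, below those of arrays of the same orientation (0.42 to 0.485 and 0.39 to 0.41), and their ratios were taken as already turned one way. Spot brightness is unknown, so weak spots could not be told from strong ones, and only 4 arrays of 2 cultures were available. Of 6209 rows, 2 controls were left out. ORF names were matched to RefSeq (assembly R64) for names and gene order alone, and rows of 1 gene were averaged. Tests used limma 3.58.1 in R 4.3.3 on the 3299 genes with 4 values. The fit was also run on simulated data with no dye effect and 1 noise level per array. That run cannot show how the test behaves where dye acts or spread differs between genes. The 2 arrays of a culture were averaged, the 2 culture means were tested against 0, and a call needed an adjusted p (Benjamini-Hochberg) below 0.05 for both possible pairings of arrays into cultures. The larger p and standard error and the wider interval limits were kept. With an array left out, means were averaged over both pairings, so the remaining arrays did not count equally. Alternatives covered centring, scaling, blanks, pairing, dye terms, the prior and single arrays. Text names every member, *GSC2*, and from the comparison lists every gene past the threshold and the largest rise and fall in mean. The members and lists were chosen with earlier results of these data known. Protein and promoter sequences were not used here.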

Additional observations from a re-analysis of the deposited data

Results flagged for a closer look

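In none of 13 genes checked, 7 of them glucanase and SUN genes, did 1 array stand apart from the other 3 by Dixon's criterion. Chance alone would give 0.65 such genes for independent samples, which dye swaps of 2 cultures are not.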

How the results depend on the processing

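The standard error was 0.28 for most genes (range 0.28 to 0.42) because the prior of the test outweighed the spread of single genes, so a call is close to a rule of size. The 2 calls, *EXG1* and *BGL2*, held with centred arrays, a robust prior and calls of 1 sign. They also held in a fit of 4 single arrays with a dye term, which treats arrays of 1 culture as independent. The count was 0 with centred and scaled arrays and 0 with values on at least 3 arrays. There, 4 of 7 and 4 of 9 members had an unadjusted p under 0.05 in limma, against 396 of 3299 and 420 of 4429 genes. The count was 1 (*EXG1*) in the same fit of single arrays without a dye term. It was 4 with arrays 1 with 4 as the only pairing. Without single arrays it was 0 to 1, with 2 to 4 members unadjusted, against 206 to 414 of 3299 genes. The 137 calls over all genes became 2 with centred and scaled arrays and 47 with values on at least 3 arrays. They became 65 in the single-array fit without a dye term, 306 with that pairing alone, and 5 to 101 without single arrays. Both genes kept a positive mean in all settings (*EXG1* 1.02 to 1.36, *BGL2* 0.70 to 1.07). Their values were above 0 on all 4 arrays, so this sign and the outcome for calls of 1 sign were fixed in advance. *UTH1* turned to 0.062 with centred arrays, 0.088 with scaled ones and lay between −0.17 and 0.051 without single arrays, and *SCW4* lay between −0.030 and 0.20 without single arrays. Centring moved the median of all genes by 0.13. The causes were not tested.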
